A study of Drosophila melanogaster with 46 samples.

Results

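The vitelline membrane protein genes are 6 genes of the Drosophila eggshell, Vm26Aa, Vm26Ac, Vm32E, Vm34Ca, psd and dec-1. They were taken from a list of 7 names by matching each name to the gene symbols of the array's probe table, using probe sets that name 1 gene. Of the 11981 genes with such a probe set these are 6, each with a single probe set. Vm26Ab was not matched and was not analysed here, and dec-1 was matched under the symbol dec.

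Expression was measured on 46 microarrays, each holding RNA of a pool of 5 whole virgin females. SR, 1 line from selection for starvation resistance, was set against C, 1 unselected control line, so the arrays of a group repeat fly pools and not lines. Old flies were collected when 10% of their cohort was alive and middle-aged flies when 90% was alive, on malnutrition (yeast and sugar at 0.5x the standard medium), optimal food (2x) or overfeeding (5x). Because age was set by survival, the age in days differs between groups. The 12 groups were SR old, SR middle-aged, C old and C middle-aged flies on each of the 3 foods; 10 groups held 4 arrays and 2 held 3 (C old on malnutrition and C old on overfeeding). Values are log2 expression, in which a difference of 1 is a doubling. The labels say that pools of one group are separate samples and nothing of separate cultures, so the spread between arrays may be in part technical.

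The vitelline membrane is the inner layer of the insect eggshell. Follicle cells, the somatic cells around each growing oocyte, secrete its proteins while yolk is being taken up, and they build the chorion on top of it later. Vm26Aa, Vm26Ac, Vm34Ca and Vm32E encode small structural proteins of this layer that share a conserved domain, and transcription of Vm32E is known to be restricted to a narrower window of egg chamber growth than that of the others. psd (palisade) encodes a further vitelline membrane component that is needed for the proper distribution of other eggshell proteins. dec-1 (defective chorion 1) encodes a set of secreted proteins that are cleaved within the eggshell and are required for its assembly. By the RefSeq annotation, Vm26Ac, Vm26Aa and psd follow one another on chromosome arm 2L, with Vm26Ab as the neighbour on the other side of Vm26Ac. Vm32E and Vm34Ca lie elsewhere on 2L, and dec-1 is on the X chromosome.

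The labelled tissue held ovary RNA in every group. The mean of 17 female germline genes lay between 9.77 and 10.36 in the 15 malnutrition arrays and between 9.75 and 10.41 in the 31 arrays of the richer foods. The mean of 11 genes of the male reproductive tract lay between 3.37 and 3.64 over all 46 arrays. One array, C old on optimal food replicate 4, was the highest of all 46 for Vm26Aa, Vm32E, Vm34Ca, psd and dec-1 and the second highest for Vm26Ac, and results that rest on it are given with and without it.

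All 6 genes were low on malnutrition, in both lines and at both ages, with little spread between arrays. On optimal food and overfeeding they ranged from the malnutrition level to far above it, and most of that range lay between replicate pools of the same group. Vm34Ca, a structural protein gene, was at 6.09 to 6.90 in the malnutrition arrays (median 6.63) and at 6.61 to 13.87 in the arrays of the richer foods (median 11.16), a range of 0.80 against 7.26. Vm26Aa was at 5.70 to 6.31 on malnutrition and at 5.98 to 13.05 on the richer foods. For dec-1 these ranges were 4.09 to 4.93 and 4.56 to 11.31. They were 3.34 to 3.69 and 3.25 to 9.57 for Vm32E. For Vm26Ac they were 3.86 to 4.34 and 4.12 to 7.97, and for psd 4.77 to 5.58 and 5.13 to 8.66. In whole females, fewer follicle cells of a given stage and less RNA per cell cannot be told apart. The files hold no detection call, so a low value is a level and not an absence.

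**Figure D1:**
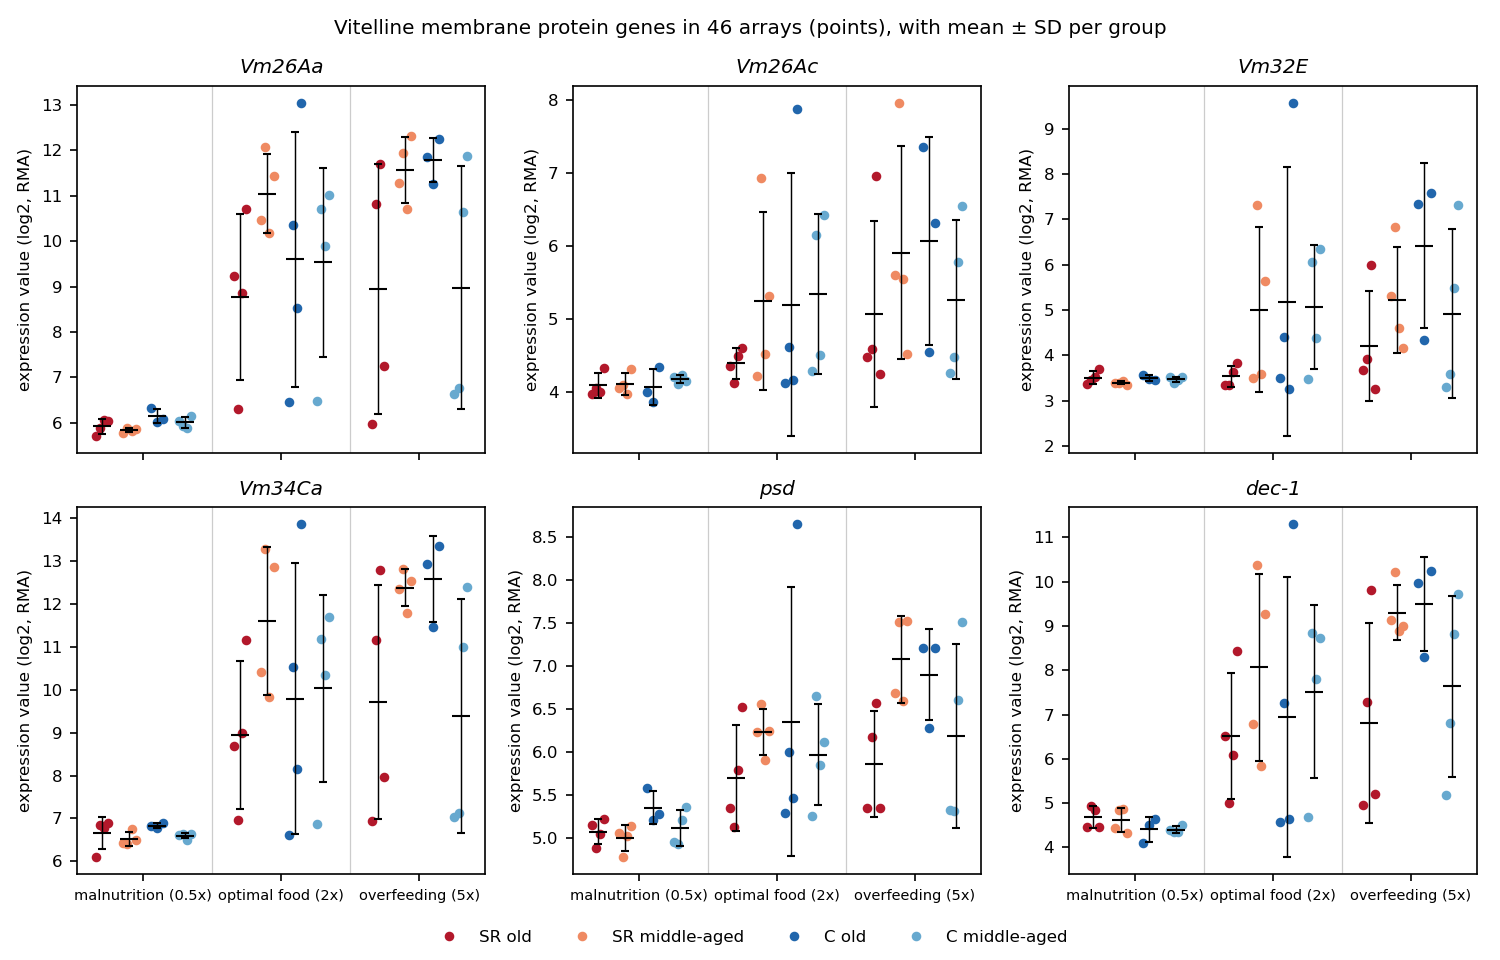
Log2 expression value (y axis) of the 6 genes in each array (points), by food, line and age, with the group mean (bar) and SD (whiskers); n = 4 arrays per group, 3 for C old on malnutrition and on overfeeding. The 15 malnutrition arrays lie in a narrow low band for every gene (Vm26Aa 5.70 to 6.31), and the 31 arrays of the richer foods spread upward from it (Vm26Aa 5.98 to 13.05).

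The spread between replicate pools depended on the food. Over the 8 groups on richer foods the pooled within-group SD was 2.18 for Vm34Ca, 2.04 for Vm26Aa, 2.00 for dec-1, 1.72 for Vm32E, 1.27 for Vm26Ac and 0.825 for psd, against a median of 0.152 over all 18952 probe sets. In order of this SD among all probe sets the genes stood at places 6, 8, 10, 19, 37 and 84. These SDs and places include C old on optimal food replicate 4 and were not computed without it. Without it the SD of that group was 0.61 against 2.97 for Vm32E, 0.27 against 1.80 for Vm26Ac and 0.37 against 1.57 for psd. It was 1.98 against 3.17 for Vm34Ca, 1.96 against 2.80 for Vm26Aa and 1.54 against 3.17 for dec-1. Over the 4 malnutrition groups the pooled SD of the 6 genes lay between 0.087 (Vm32E) and 0.231 (dec-1), against a median of 0.160 for all probe sets. On malnutrition Vm32E, Vm26Ac and dec-1 lay below the array medians (5.04 to 5.27), and Vm26Aa and Vm34Ca lay above them. The part of the low end of the scale in this small spread was not tested. With all arrays the 6 genes were thus about as variable as other genes on malnutrition and among the most variable of the array on richer foods.

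The values of single arrays show this. Vm26Aa on optimal food was at 9.23, 6.30, 8.87 and 10.70 in the SR old pools and at 10.47, 12.08, 10.19 and 11.44 in the SR middle-aged pools. In C flies on this food it was at 6.45, 10.36, 8.53 and 13.05 in the old pools and at 6.48, 10.72, 9.90 and 11.03 in the middle-aged pools. One C pool of each age was thus close to the malnutrition level, and the other 3 of each age were well above it. Vm26Aa on overfeeding was at 5.98, 10.82, 11.70 and 7.25 in the SR old pools and at 11.28, 11.95, 10.71 and 12.33 in the SR middle-aged pools. In C flies on overfeeding it was at 11.85, 11.27 and 12.24 in the old pools and at 6.63, 6.76, 10.63 and 11.88 in the middle-aged pools. The SR old and C middle-aged pools on overfeeding split into 2 low and 2 high values each, and the SR middle-aged and C old pools were all high.

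dec-1 gave the same picture on overfeeding. It was at 4.95, 7.28, 9.82 and 5.20 in the SR old pools and at 9.13, 10.22, 8.88 and 8.99 in the SR middle-aged pools. In C flies it was at 9.97, 8.29 and 10.24 in the old pools and at 5.19, 6.81, 8.82 and 9.73 in the middle-aged pools. The 2 SR old pools with the lowest dec-1 were also the 2 with the lowest Vm26Aa, and so were the 2 C middle-aged pools. On optimal food dec-1 was at 6.52, 5.01, 6.09 and 8.44 in the SR old pools and at 6.78, 10.38, 5.84 and 9.27 in the SR middle-aged pools. It was at 4.56, 7.26, 4.64 and 11.31 in the C old pools and at 4.68, 8.85, 7.80 and 8.74 in the C middle-aged pools. Each of these groups spanned over 3 log2 units.

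Vm32E was high in fewer pools than the other genes. Whether this is related to its narrower window of transcription was not tested. On optimal food it was at 3.34, 3.34, 3.63 and 3.83 in the SR old pools and at 3.50, 7.32, 3.58 and 5.64 in the SR middle-aged pools. It was at 3.50, 4.40, 3.25 and 9.57 in the C old pools and at 3.48, 6.05, 4.39 and 6.34 in the C middle-aged pools. No SR old pool on this food was more than slightly above the malnutrition range, and a single C old pool reached the highest value of the gene. On overfeeding Vm32E was at 3.67, 3.92, 5.99 and 3.25 in the SR old pools and at 5.31, 6.83, 4.59 and 4.16 in the SR middle-aged pools. In C flies on overfeeding it was at 7.35, 4.33 and 7.59 in the old pools and at 3.30, 3.58, 5.48 and 7.33 in the middle-aged pools.

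Counting the arrays of richer foods that exceeded the highest malnutrition array of the same gene gave 29 of 31 for Vm26Aa and for Vm34Ca, 28 for dec-1, 24 for Vm26Ac, 22 for psd and 19 for Vm32E. The sets of arrays were largely nested. The 19 arrays with Vm32E above its malnutrition range had the other 5 genes above theirs as well, and no array of the richer foods had all 6 genes within the malnutrition range. psd was above its range in 3 arrays in which Vm32E was not, and Vm34Ca in 10. Strict nesting failed in single arrays, such as 1 with Vm26Ac but not Vm26Aa above. At the low end, C middle-aged replicate 1 and C old replicate 1 on optimal food had a single gene, Vm26Aa, above its malnutrition range. The arrays between these ends had 2 genes (2 arrays), 3 genes (3 arrays), 4 genes (3 arrays) or 5 genes (2 arrays) above. These are descriptions of the same 31 RNA pools, and genes measured on one array are not independent.

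**Figure D2:**
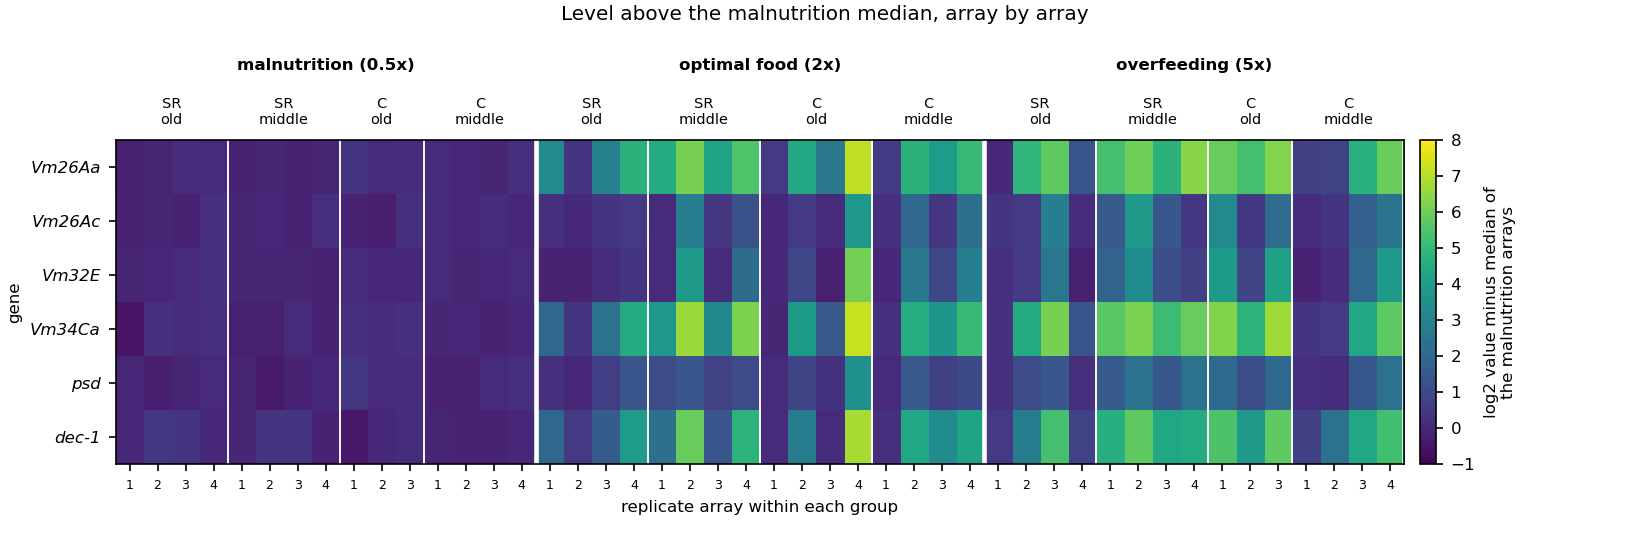
Log2 value of each gene (rows) minus the median of its 15 malnutrition arrays (colour), for each of the 46 arrays (columns) by food, line, age and replicate. On malnutrition all cells are near 0. On richer foods 19 of 31 arrays have all 6 genes above their malnutrition range, and the other arrays have 1 to 5. Vm32E is above its malnutrition range in 19 of 31 arrays against 29 for Vm34Ca.

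The 6 genes moved together from array to array. Pearson's r between 2 genes lay between 0.770 and 0.987 over the 46 arrays (15 pairs, median 0.872). After subtracting group means within the 31 arrays of richer foods it lay between 0.677 and 0.976, so the shared variation was between pools of the same group. The closest pairs over all arrays were Vm26Aa with Vm34Ca (0.987), Vm34Ca with dec-1 (0.971) and Vm26Ac with Vm32E (0.948). The lowest was Vm26Aa with Vm26Ac (0.770), which are neighbours on the chromosome. Within the 15 malnutrition arrays the same pairs ranged from -0.607 to 0.700. Without C old on optimal food replicate 4 the range over the other 45 arrays was 0.753 to 0.987. The points of each correlation share their library and its normalization.

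The food comparison asked whether the genes differed between flies on poor and on richer media. Averaged over lines and ages, all 6 genes were lower on malnutrition than on the 2 richer foods, where 18.7% of all probe sets were called lower. Vm26Aa averaged 5.98 on malnutrition and 10.03 on the richer foods, 16.6-fold lower (log2 difference -4.05 ± 0.50 SE, adjusted p = 1.34e-08, limma). Vm34Ca was 15.0-fold lower (-3.91 ± 0.54, adjusted p = 1.27e-07) and dec-1 was 9.57-fold lower (-3.26 ± 0.50, adjusted p = 8.53e-07). Vm32E was 2.79-fold lower (-1.48 ± 0.42, adjusted p = 0.00492), Vm26Ac 2.30-fold (-1.20 ± 0.31, adjusted p = 0.00204) and psd 2.22-fold (-1.15 ± 0.21, adjusted p = 1.54e-05). The median of the 6 differences was -2.37, against -0.02 over all probe sets. Each of these calls was kept when any 1 of the 46 arrays was left out, and without C old on optimal food replicate 4 the differences lay between -1.05 for psd and -3.91 for Vm26Aa.

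Within a single line and age fewer of the 6 genes passed than in this average. In SR middle-aged flies, malnutrition against optimal food, 3 of 6 genes were lower, where 6.4% of all probe sets were called lower. Vm26Aa was at 5.78 to 5.89 on malnutrition, against 10.19 to 12.08 on optimal food, with no overlap (-5.21 ± 1.12, 37.0-fold lower, adjusted p = 0.00134, limma). Vm34Ca was at 6.41 to 6.75, against 9.84 to 13.29 (-5.09 ± 1.21, adjusted p = 0.00354). dec-1 was at 4.34 to 4.86, against 5.84 to 10.38 (-3.45 ± 1.11, adjusted p = 0.0322). This last call was lost in 6 of 8 fits that left out 1 array, namely any of the 4 malnutrition arrays or optimal food replicate 2 or 4 (adjusted p 0.0554 to 0.12). The groups did not overlap for 5 genes, where 9.18% of all probe sets were wholly lower. The gene that overlapped was Vm26Ac, at 3.97 to 4.32 on malnutrition, against 4.22 to 6.94 on optimal food.

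In SR old flies no gene passed in this comparison, where 8% of all probe sets were called lower. Vm26Aa was at 5.70 to 6.07 on malnutrition, against 6.30 to 10.70 on optimal food (-2.85 ± 1.12, adjusted p = 0.0822), and 1 gene, Vm26Aa, had an unadjusted p under 0.05. Without optimal food replicate 2, in which Vm26Aa was at 6.30, this gene passed (-3.68, adjusted p = 0.0283). Vm26Aa, Vm34Ca and dec-1 did not overlap between the foods, where 7.79% of all probe sets were wholly lower. Vm32E averaged 3.51 on malnutrition and 3.53 on optimal food, a difference of -0.03 with a 95% interval of -1.95 to 1.89.

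In C old flies 1 gene was lower on malnutrition than on optimal food, where 7.97% of all probe sets were called lower. This was Vm26Aa, at 6.31, 6.02 and 6.09 on malnutrition, against 6.45, 10.36, 8.53 and 13.05 on optimal food (-3.46 ± 1.21, adjusted p = 0.0426). The call was lost without optimal food replicate 4 (-2.31, adjusted p = 0.227), and also without optimal food replicate 2 or any of the 3 malnutrition arrays (adjusted p 0.0889 to 0.106). Vm26Aa was also the single gene without overlap, where 8.8% of all probe sets were wholly lower. Without replicate 4 the differences of the other 5 genes lay between -0.22 (Vm32E) and -1.60 (Vm34Ca), and that of Vm34Ca was -2.96 with it.

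In C middle-aged flies 2 genes were lower, where 5.09% of all probe sets were called lower. Vm26Aa was at 6.05, 5.93, 5.89 and 6.16 on malnutrition, against 6.48, 10.72, 9.90 and 11.03 on optimal food (-3.53 ± 1.12, adjusted p = 0.0282). Vm34Ca was at 6.61, 6.63, 6.51 and 6.63, against 6.87, 11.19, 10.35 and 11.71 (-3.44 ± 1.21, adjusted p = 0.0498). Optimal food replicate 1 was barely above malnutrition for both. The groups did not overlap for 4 genes, where 8.27% of all probe sets were wholly lower, and dec-1 had an adjusted p of 0.0537 (-3.11 ± 1.11). The call of Vm26Aa was lost without malnutrition replicate 1 or 2 or optimal food replicate 2, 3 or 4 (adjusted p 0.0524 to 0.104), and that of Vm34Ca in 7 of 8 such fits, all but the one without optimal food replicate 1 (adjusted p 0.0759 to 0.161).

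Against overfeeding, a comparison added after the values had been seen, malnutrition was lower for 4 genes in SR middle-aged flies, where 7.06% of all probe sets were called lower, and for 4 in C old flies, where 6.24% were. These were Vm26Aa, Vm34Ca, dec-1 and psd in both. In SR middle-aged flies Vm34Ca was at 6.42, 6.41, 6.75 and 6.50 on malnutrition, against 12.35, 12.83, 11.80 and 12.54 on overfeeding (-5.86 ± 1.21, 58.0-fold lower, adjusted p = 0.000467). In C old flies Vm34Ca was at 6.83, 6.77 and 6.90 on malnutrition, against 12.94, 11.46 and 13.35 on overfeeding (-5.75 ± 1.39, adjusted p = 0.00292). psd differed by -2.08 ± 0.46 in SR middle-aged flies (adjusted p = 0.00113) and by -1.55 ± 0.53 in C old flies (adjusted p = 0.0452). The call of psd in C old flies was lost in 5 of 6 fits that left out 1 array, all but the one without overfeeding replicate 2 (adjusted p 0.0648 to 0.156). In these 2 groups all 6 genes were wholly lower on malnutrition, where 11.8% and 13.9% of all probe sets were, in SR middle-aged and C old flies.

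In the 2 groups whose overfed pools split into low and high values, fewer genes passed against overfeeding. In SR old flies none did, where 9.59% of all probe sets were called lower, and the smallest adjusted p was 0.0536 for Vm26Aa (-3.02 ± 1.12). Vm34Ca, psd and dec-1 did not overlap, where 9.86% of all probe sets were wholly lower. Without overfeeding replicate 1 Vm26Aa passed (-4.00, adjusted p = 0.0106) and so did Vm34Ca (-3.99, adjusted p = 0.0204). Without overfeeding replicate 4 both passed too (adjusted p 0.0342 and 0.0464). In C middle-aged flies 1 gene passed, where 7.99% of all probe sets were called lower. This was dec-1, at 4.35 to 4.51 on malnutrition, against 5.19 to 9.73 on overfeeding (-3.23 ± 1.11, adjusted p = 0.0335). Vm26Aa, Vm26Ac, Vm34Ca and dec-1 did not overlap, where 11.7% of all probe sets were wholly lower. The call was lost without any 1 of the 4 malnutrition arrays or without overfeeding replicate 3 or 4 (adjusted p 0.0538 to 0.131). Without overfeeding replicate 1, Vm26Aa, Vm34Ca and psd passed as well, and without replicate 2, Vm26Aa and psd did.

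**Figure D3:**
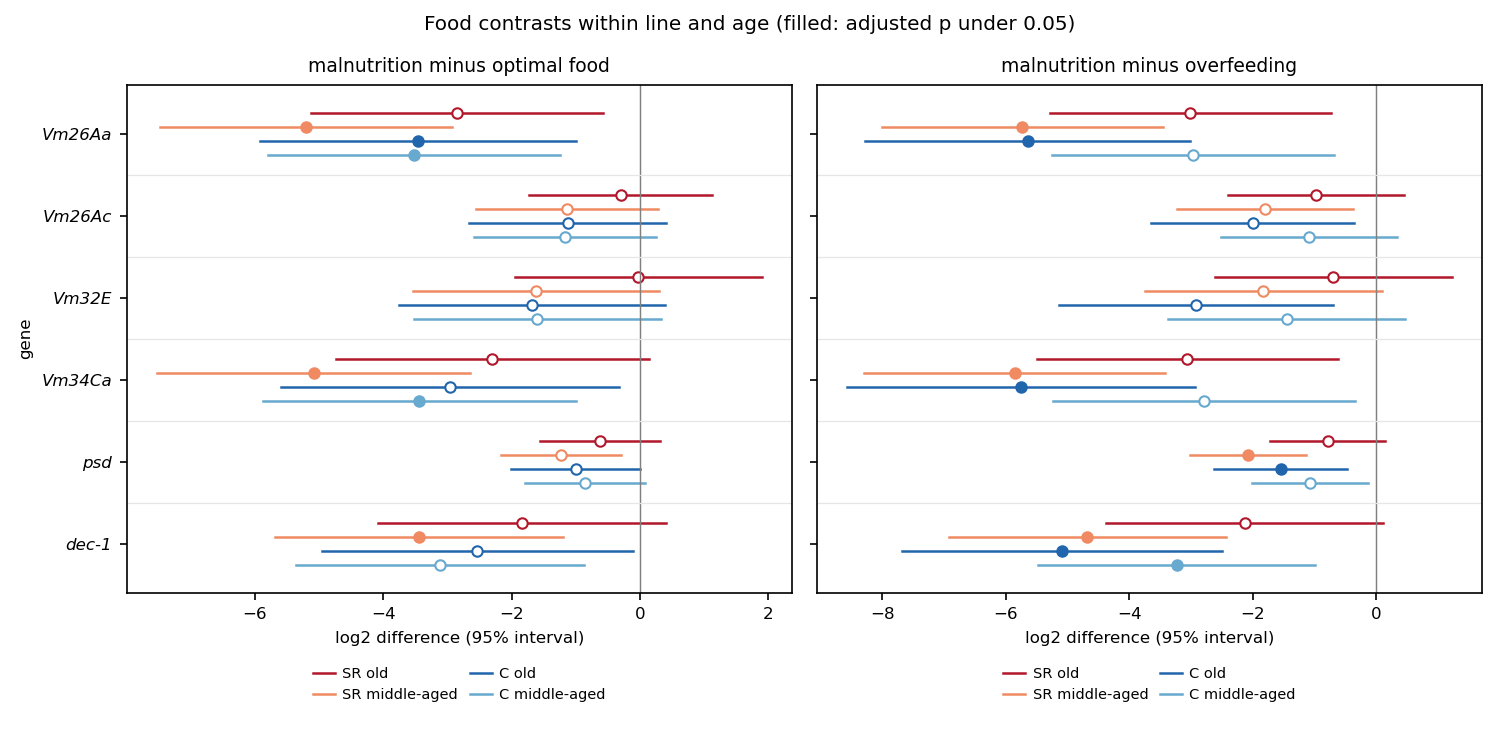
Log2 difference of each gene (points) with its 95% interval (lines) for malnutrition minus optimal food (left) and malnutrition minus overfeeding (right), in each line and age; filled points have an adjusted p under 0.05. All differences are below 0, and Vm26Aa, Vm34Ca, psd and dec-1 are filled in SR middle-aged and C old flies on the right (Vm34Ca -5.86 and -5.75).

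Overfeeding against optimal food gave no call in any line and age, where 0.248% of all probe sets were called in SR old, 1.1% in SR middle-aged, 0.871% in C old and 0.0106% in C middle-aged flies. Averaged over lines and ages all 6 differences were above 0, from 0.44 ± 0.24 for psd to 1.05 ± 0.56 for dec-1 (adjusted p = 0.194 and 0.201), where 16.3% of all probe sets were called in either direction. Without C old on optimal food replicate 4 psd (0.64, adjusted p = 0.017) and dec-1 (1.41, adjusted p = 0.0476) passed in this average. In SR middle-aged flies psd was at 6.69, 7.51, 6.59 and 7.52 on overfeeding, against 6.23, 6.56, 5.91 and 6.24 on optimal food. These values did not overlap, where 2.82% of all probe sets were wholly higher, but the difference did not pass (0.84 ± 0.46, adjusted p = 0.332). In C old flies the 6 differences lay between 0.55 and 2.79 (smallest adjusted p = 0.25), with an unadjusted p under 0.05 for 2 genes, and between 1.32 and 4.15 without optimal food replicate 4 (smallest adjusted p = 0.0751). In C middle-aged flies they lay between -0.64 and 0.22.

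The malnutrition difference was also compared between lines and between ages, as interactions. The difference in SR minus that in C, both against optimal food, lay between 0.38 and 1.66 for the 6 genes in old flies (0.285% of all probe sets called) and between -1.68 and 0.03 in middle-aged flies (2.13% called). In old flies 5 of these values were below 0 without C optimal food replicate 4, and Vm32E was at 0.19. The difference in old flies minus that in middle-aged flies lay between 0.61 and 2.78 in SR (0.67% called) and between -0.14 and 0.58 in C (5.2% called). Without C old on optimal food replicate 4 all 6 values in C were above 0, from 0.62 for psd to 2.04 for dec-1. None of them passed (smallest adjusted p = 0.45, limma). With all arrays none of the 6 genes passed in these 4 tests, with a smallest adjusted p of 0.536 for Vm34Ca in SR.

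The age comparison asked whether the genes changed between middle and old age within a line and food. None of the 6 genes passed in any of the 6 line and food combinations, where between 0.327% and 26% of all probe sets were called in either direction. On malnutrition the differences, old minus middle-aged, were between -0.02 and 0.13 in SR flies (0.327% of all probe sets called) and between -0.11 and 0.24 in C flies (0.823%), with standard errors of 0.46 to 1.30 that are set by the pooled spread of all 12 groups. One gene did not overlap there, Vm34Ca in C flies (6.77 to 6.90 in old flies, against 6.51 to 6.63 in middle-aged flies), where 3.09% of all probe sets were wholly higher.

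On overfeeding the age differences were of opposite sign in the lines, and on both richer foods their intervals were wide. In SR flies all 6 differences were below 0 on both foods, and none passed. Vm34Ca on optimal food was at 8.69, 6.97, 8.99 and 11.17 in old flies, against 10.42, 13.29, 9.84 and 12.87 in middle-aged flies (-2.65 ± 1.21, adjusted p = 0.411, 0.955% of all probe sets called). On overfeeding it was at 6.93, 11.16, 12.79 and 7.96 in old flies, against 12.35, 12.83, 11.80 and 12.54 in middle-aged flies (-2.67 ± 1.21, adjusted p = 0.384, 1.79% called). There psd did not overlap, at 5.34, 6.17, 6.57 and 5.35 in old flies, against 6.69, 7.51, 6.59 and 7.52 in middle-aged flies (-1.22 ± 0.46, adjusted p = 0.233), where 3.35% of all probe sets were wholly lower. In SR flies 4 genes on overfeeding and 1 on optimal food had an unadjusted p under 0.05.

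In C flies on overfeeding all 6 differences were above 0, and none passed. Vm34Ca was at 12.94, 11.46 and 13.35 in old flies, against 7.02, 7.13, 10.99 and 12.40 in middle-aged flies (3.20 ± 1.30, adjusted p = 0.225, 1.24% of all probe sets called), and 2 genes had an unadjusted p under 0.05. In C flies on optimal food, where 26% of all probe sets were called, the 6 differences lay between -0.57 and 0.38 and none had an unadjusted p under 0.05. Without C old replicate 4 these 6 differences were all below 0, from -0.38 for psd to -2.03 for dec-1 (adjusted p 0.542 and 0.17), so the sign for Vm26Aa, Vm32E and psd in C flies on optimal food rested on that array. Averaged over lines and foods the age differences lay between -0.45 ± 0.46 for dec-1 and -0.06 ± 0.19 for psd, with a smallest adjusted p of 0.571 (18.2% called). Without C old on optimal food replicate 4 they lay between -0.69 for dec-1 and -0.19 for psd, with a smallest adjusted p of 0.259 (limma).

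The line by age interaction, the age change in SR flies minus that in C flies, was tested on each food. On overfeeding all 6 values were below 0, from -1.65 ± 1.03 for Vm26Ac to -5.86 ± 1.77 for Vm34Ca, and 4 genes had an unadjusted p under 0.05 (Vm34Ca 0.00208, Vm26Aa 0.0022, psd 0.00711 and dec-1 0.0111). None passed the adjustment over all probe sets (smallest adjusted p = 0.425, limma), where 0.095% of all probe sets were called. Their standard errors pool in the small spread on malnutrition (pooled SD of Vm34Ca 0.216, against 2.18 on richer foods). The unadjusted p-values on overfeeding are therefore too small. On optimal food the values lay between -0.71 and -2.41 with a smallest adjusted p of 0.365 (5.26% of all probe sets called), and without C old replicate 4 those of Vm26Ac (0.19) and dec-1 (0.48) were above 0, and on malnutrition between -0.16 and 0.09 (0.0264% called). The opposite age signs of the 2 lines on overfeeding are therefore not shown to differ at this replication.

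The line comparison asked whether SR and C flies differed at one age and food. No gene passed in any of the 6 combinations, where between 2.55% and 16.7% of all probe sets were called in either direction. In old flies on overfeeding all 6 differences, SR minus C, were below 0 (2.55% called). Vm26Aa was at 5.98, 10.82, 11.70 and 7.25 in SR, against 11.85, 11.27 and 12.24 in C (-2.85 ± 1.21, 95% interval -5.31 to -0.39, adjusted p = 0.311), and 5 genes had an unadjusted p under 0.05. The spread pooled with the malnutrition groups narrows this interval and lowers these unadjusted p-values too. In middle-aged flies on overfeeding all 6 were above 0, from 0.30 ± 0.95 for Vm32E to 2.99 ± 1.21 for Vm34Ca (adjusted p = 0.942 and 0.179, 4.47% called).

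On optimal food the line differences in old flies lay between -1.65 (Vm32E) and -0.43 (dec-1), where 4.35% of all probe sets were called. Without C replicate 4 they lay between -0.19 (Vm32E) and 1.03 (dec-1), and those of Vm26Aa, Vm26Ac, Vm34Ca, psd and dec-1 were above 0 (smallest adjusted p = 0.679). In middle-aged flies on optimal food they lay between -0.10 and 1.57 (16.7% called). On malnutrition they lay between -0.28 and 0.27 in old flies (3.59% called) and between -0.17 and 0.22 in middle-aged flies (3.41% called). Vm26Aa did not overlap in middle-aged flies on malnutrition, at 5.78 to 5.885 in SR and 5.891 to 6.16 in C (-0.17 ± 1.12, adjusted p = 0.984), where 4.79% of all probe sets were wholly lower. Averaged over foods and ages the line differences lay between -0.61 ± 0.40 (Vm32E) and 0.10 ± 0.51 (Vm34Ca), with 0 of 6 genes past the threshold or at an unadjusted p under 0.05 (20.2% called). Without C old on optimal food replicate 4 they lay between -0.37 (Vm32E) and 0.33 (Vm34Ca), with a smallest adjusted p of 0.497 (limma). That of dec-1 was -0.07 with this array and 0.17 without it.

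**Figure D4:**
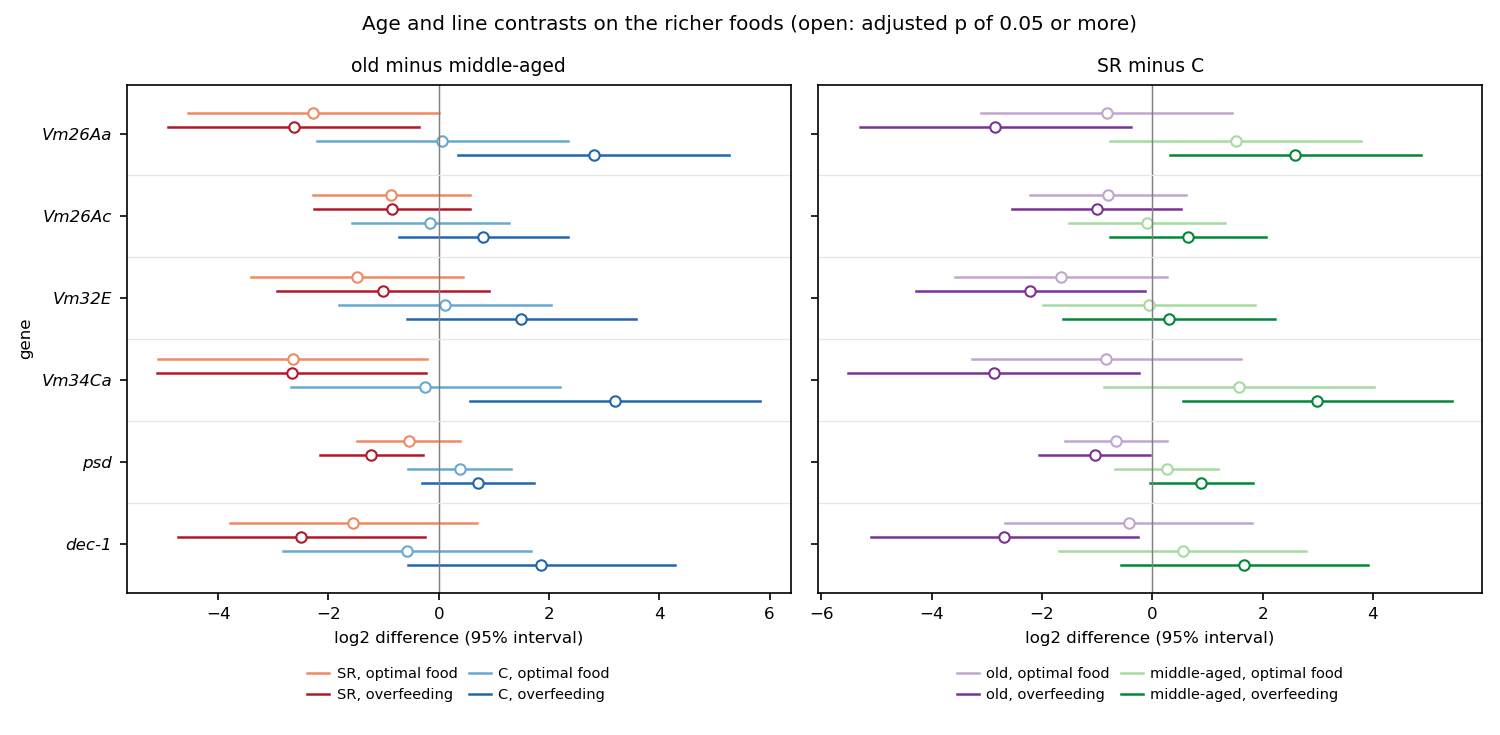
Log2 difference of each gene (points) with its 95% interval (lines) on optimal food and overfeeding, for old minus middle-aged (left) and SR minus C (right); all points are open because none had an adjusted p under 0.05. On overfeeding the age differences are below 0 in SR and above 0 in C, for Vm34Ca -2.67 and 3.20.

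The order of the 12 group means placed the 4 malnutrition groups last, at places 9 to 12, for each of the 6 genes. For Vm26Aa the order was C old on overfeeding (11.78 ± 0.49 SD), SR middle-aged on overfeeding (11.57 ± 0.72), SR middle-aged on optimal food (11.04 ± 0.87), C old (9.60 ± 2.80) and C middle-aged (9.53 ± 2.09) on optimal food, C middle-aged (8.98 ± 2.69) and SR old (8.94 ± 2.75) on overfeeding, and SR old on optimal food (8.77 ± 1.83). Malnutrition followed, with C old (6.14 ± 0.16), C middle-aged (6.01 ± 0.12), SR old (5.92 ± 0.17) and SR middle-aged (5.83 ± 0.05). Each group had 4 arrays, and C old had 3 on malnutrition and on overfeeding. Neighbours in this order overlapped in all 11 pairs for Vm26Aa, Vm26Ac, Vm32E and psd, and in 10 of 11 for Vm34Ca and dec-1. The exception was SR old on optimal food and the malnutrition group after it. The place of C old on optimal food rested on its replicate 4. Without it that group's mean for Vm26Aa was 8.45, below SR old on optimal food (8.77). It was also below that group for Vm26Ac (4.30 against 4.39) and Vm34Ca (8.43 against 8.95). The same held for psd (5.59 against 5.69) and dec-1 (5.49 against 6.52), but not for Vm32E (3.72 against 3.53).

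Other genes of egg production were read beside the 6 genes, in the average over lines and ages, where 18.8% of all probe sets were called higher on malnutrition and 18.7% lower. A list of 11 further eggshell genes was lower on malnutrition than on the richer foods for all 11 (median difference -0.74, against -0.01 over all genes). yellow-g (-2.21 ± 0.45) and yellow-g2 (-2.06 ± 0.42), relatives of the cuticle protein yellow expressed in follicle cells, and ndl (-1.87 ± 0.17), a protease of the eggshell, were among them. All 7 chorion protein genes measured were lower too (median -3.52), with Cp36 at -4.11 ± 0.63. So were all 4 yolk genes, with the yolk proteins Yp2 at -3.86 ± 0.16 and Yp3 at -3.77 ± 0.16. Of 17 germline genes 3 were higher and 5 lower (median -0.08), and of 11 genes of follicle cell patterning and ovulation 4 were higher and 4 lower (median -0.05). The largest change in that list was Ilp8, a relaxin-like hormone (-0.90 ± 0.07, adjusted p = 7.34e-14). Of 6 genes of ecdysone synthesis 4 were lower, led by nvd (-1.74 ± 0.14), and of 8 genes of the ecdysone response 2 were higher (Hr3 0.39 ± 0.05, Hr39 0.32 ± 0.07) and 1 lower (br -0.78 ± 0.09).

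These lists were not alike in their variation between pools. The yolk list mean was at 11.83 to 12.94 in the 31 arrays of richer foods, above all 15 malnutrition arrays (8.82 to 11.38), whether the vitelline membrane genes of that array were high or low. The chorion list mean was above its malnutrition range in 23 of 31 arrays, all 23 of which also had the mean of the 6 vitelline membrane genes above its own. Some were above by little, as the highest malnutrition array had a vitelline membrane mean of 5.12. C middle-aged replicate 1 had vitelline membrane means of 5.18 on optimal food and 5.29 on overfeeding, with chorion means of 8.02 and 7.61. In 7 further arrays the vitelline membrane mean alone was above, at 5.145 to 7.32, so that some of them were barely above. The array of SR old flies on overfeeding replicate 3 had a vitelline membrane mean of 8.97 and a chorion mean of 6.11, and C middle-aged flies on overfeeding replicate 2 had 5.68 and 10.78. Over the 31 arrays r of the vitelline membrane mean was 0.646 with the other eggshell genes, 0.632 with the yolk genes, 0.536 with the chorion genes and -0.067 with the germline genes. Without C old on optimal food replicate 4 these were 0.575, 0.613, 0.477 and 0.133 over 30 arrays. Between ages in SR flies on overfeeding, where 1.79% of all probe sets were called, 7 of 7 chorion genes were lower in old flies (median -5.73) and 0 of 6 vitelline membrane genes passed (median -1.86). In SR flies on optimal food 0 of 7 and 0 of 6 passed, with medians of 1.40 for the chorion genes and -1.51 for the vitelline membrane genes (0.955% called). The difference between the lists was not tested.

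Lists of other tissues were read in the same average, with 18.8% of all probe sets called higher and 18.7% lower: all 8 neuronal and all 6 muscle genes were higher on malnutrition, all 7 gut enzyme genes were lower, and of 8 fat body genes 1 was higher and 4 lower. The mean of 8 neuronal genes was at 6.93 to 7.46 on malnutrition and at 5.85 to 6.79 on the richer foods, with all 31 arrays below the malnutrition range. The mean of 6 muscle genes was at 9.11 to 10.61 and 7.66 to 10.23, that of 7 gut enzyme genes at 7.82 to 10.51 and 9.86 to 11.58, and that of 8 fat body genes at 8.17 to 9.55 and 9.18 to 10.37. The part of these shifts in the food difference of the vitelline membrane genes was not tested. Within the 31 arrays of richer foods r with the vitelline membrane mean was -0.026 for the neuronal list, 0.152 for muscle, 0.115 for fat body and 0.188 for gut. Without C old on optimal food replicate 4 these values were -0.086, 0.024, -0.093 and 0.097 over 30 arrays. After subtracting group means, with all 31 arrays, r was -0.008, 0.250, 0.283 and 0.407 for these lists in the same order. The values after subtracting group means were not computed without that array.

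**Figure D5:**
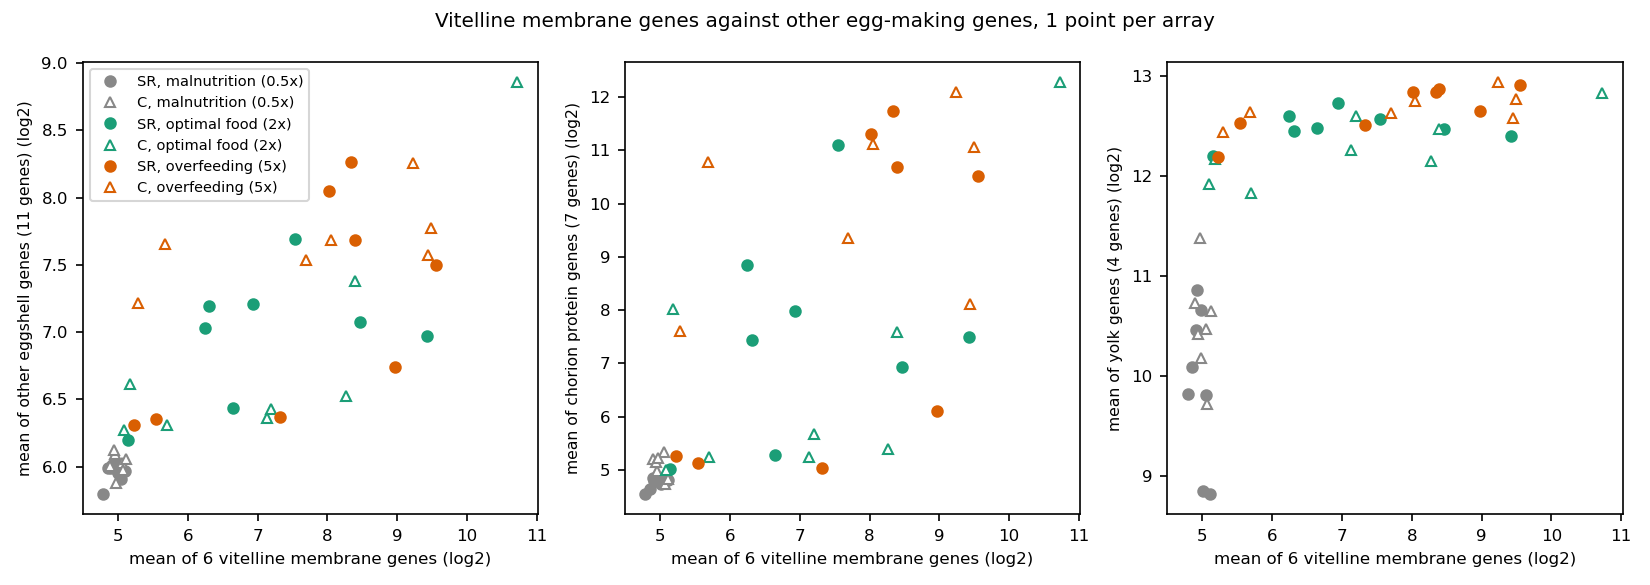
Mean log2 value of 11 other eggshell genes (left), 7 chorion protein genes (middle) and 4 yolk genes (right) against the mean of the 6 vitelline membrane genes, 1 point per array, by food (colour) and line (filled SR, open C). The yolk mean is at 11.83 or above in every array of the richer foods while the vitelline membrane mean runs from 5.09 to 10.72. In 7 arrays the vitelline membrane mean is above its malnutrition range (highest 5.12), at 5.145 to 7.32, while the chorion mean is within its own.

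The genes whose pattern was most like that of the 6 were found by Pearson's r with their mean over the 46 arrays, among 11975 other genes. The sulfotransferase gene St4 was first with r = 0.920, the single gene above 0.9, and 15 genes were above 0.8. After St4 came Jhbp5 (0.878), ndl (0.848), Obp19c (0.844), CG14834 (0.836), the metalloprotease gene sona (0.834), Fcp3C (0.822), a gene named for its follicle cell expression, yellow-k (0.820), CG8303 (0.817) and the cadherin gene Cad74A (0.814). Ranked instead by r of the deviations from the 12 group means, 7 of these 10 were again among the first 10, with St4 at 0.896 and Jhbp5 at 0.877, and Cp7Fc, CG14187 and CG17169 joined them. These values are descriptions over 46 arrays that share their groups.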

How the data were processed

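Values were deposited on a log2 scale after RMA (background correction, quantile normalization between arrays, 1 summary per probe set), for which the submitters' processing notes name R 2.7.0. The study left out 2 of its arrays on quality. The table holds 18952 probe sets and 46 arrays (array medians 5.04 to 5.27); 13646 probe sets name 1 gene, 402 several and 4904 are unnamed here. The number of arrays limits the precision.

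A mean for each of the 12 groups was estimated with limma 3.58.1 in R 4.3.3 (lmFit, eBayes), two-sided, with Benjamini-Hochberg adjustment over all probe sets and an adjusted p under 0.05 as the threshold. Errors of differences are standard errors. The fit was tested on simulated data with the same spread in every group of a probe set. That simulation did not cover the unequal spread of these genes between foods. Descriptions used Python 3.11.15 with numpy 2.4.6 and pandas 2.3.3. All members are named; of other lists, up to 4 genes with the largest changes among those passing, and the 10 genes most alike by r. Members and lists were chosen with earlier results of these data known. dec-1 was matched through a RefSeq synonym. Replicate numbers in the labels are not said to mark shared batches; same-numbered arrays deviated together (every r above 0.1) for age in C on optimal food (0.344 to 0.401) and for line in old flies on overfeeding (0.118 to 0.192), and in no other contrast checked. Alternatives were a filter at a mean of 5, centring on array medians, fitting the compared groups alone, the replicate block, leaving out each array and leaving out the malnutrition groups; the last, the contrasts of malnutrition with overfeeding and the averages over factors were added after seeing the data.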

Additional observations from a re-analysis of the deposited data

Results flagged for a closer look

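In 4 of 60 tests, each of 1 gene in 1 group of 4 arrays, a single array stood apart from the other 3. Dixon's test at the 95% level was used, which flags about 1 test in 20 by chance. The 6 genes share their arrays, so these tests are not independent. Vm26Ac was at 7.88 in C old flies on optimal food replicate 4, against 4.13 to 4.62 in the other 3 arrays. Vm26Ac was at 6.96 in SR old flies on overfeeding replicate 3, against 4.24 to 4.59. Vm34Ca was at 6.09 in SR old flies on malnutrition replicate 1, against 6.79 to 6.88, and at 6.51 in C middle-aged flies on malnutrition replicate 3, against 6.61 to 6.63.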

How the results depend on the processing

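Of 3608 alternative values of single members, 3536 kept their direction where called and their side of the threshold, 35 lost the call, 37 gained it and 0 reversed a call; 191 values that were not called changed sign. For malnutrition minus optimal food, with 0 members called in SR old, 1 in C old and 2 in C middle-aged flies, fitting the compared groups alone gave 1, 0 and 4. Leaving out 1 array gave 0 to 1, 0 to 2 and 0 to 3. For malnutrition minus overfeeding, with 0 members called in SR old and 1 in C middle-aged flies, the filter at a mean of 5 gave 2 and 2 (4 members remained to be tested), centring gave 1 and 3, and the replicate block gave 2 and 2. Leaving out 1 array gave 0 to 2 and 0 to 4, and for overfeeding minus optimal food, averaged over lines and ages, 0 to 2 against 0. The cause was not tested. The replicate block changed no other count of members by over 1.5 times. With the malnutrition groups out of the fit, 0 of 90 member values in 15 contrasts passed (smallest adjusted p = 0.265, limma). Each member has 1 probe set, so the alternative of other probe sets could not be run.

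The fit pools the spread of all 12 groups, which for these genes was far smaller on malnutrition than on the richer foods. For these genes, standard errors and unadjusted p-values between groups of richer foods are therefore too small, and intervals too narrow. SDs within a group of 3 or 4 pools were up to 3.17. Differences between groups of richer foods below several log2 units could therefore not be resolved for Vm34Ca, Vm26Aa and dec-1. For psd, Vm26Ac and Vm32E the standard errors between single groups were smaller (0.46 to 1.02), and no such difference passed either. The intervals do not show that lines or ages are alike. RMA makes most arrays alike in overall level, so a change shared by most genes is already removed. Counts of all probe sets called moved as well: for the line by age interaction on optimal food they were 996 with all arrays, 150 without C old replicate 4 and 2153 with the filter. For malnutrition minus optimal food in C old flies they were 3314, and 1535 when the compared groups were fitted alone, and for malnutrition minus overfeeding in C middle-aged flies 3712, and 5966 after centring.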
